A study of Mus musculus with 11 samples.

Results

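The complement genes described here were C1qa, C1qb, C1qc, C3, C4b, C3ar1, C5ar1, Cfp and Serping1. They were listed by name and matched by symbol, and all 9 were found among the 25006 genes of the count tables. Complement is a cascade of plasma and tissue proteins that tags dying cells and microbes for removal. C1q, assembled from the C1qa, C1qb and C1qc chains, recognises the target and starts the classical pathway, in which C4 and C2 form the enzyme that cleaves C3. Fragments of C3 coat the target or act as the attractant C3a, while C5a is the attractant from C5. In tissues, macrophages are a well known source of C1q, and phagocytes take up cells that carry C1q and C3 fragments.

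The measurements came from bulk RNA-seq of the left ventricle in 11 mice, 1 library per mouse. Control mice carried the genotype label Vegfc fl/fl, with 2 naive libraries (M44 and M45) and 3 taken after myocardial infarction (MI; M006, M38 and M40). The labels' protocol text names the control animals LysMCre instead, so whether the controls also carried the Cre is open in these sources. The Vegfc-deficient mice were Vegfc fl/fl ; LysMCre, with 3 naive libraries (M149, M150 and M34) and 3 after MI (M35, M900 and M913). LysMCre is expressed from the Lyz2 locus and recombines in myeloid cells, which include monocytes, macrophages and neutrophils, so other cells of the ventricle kept the gene. MI was made by permanent ligation of the left anterior descending coronary artery, and infarcted tissue was taken at day 9. Naive hearts gave a piece of matching mass and position. Mouse ages were not given in the sources used here.

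Total counts were between 10824989 and 26782728 per library, and a floor of 3 counts lay at 0.101 to 0.363 CPM (counts scaled to library size by the TMM method), which covers counting error only. Vegfc itself was at 21.9 to 45.5 CPM and its ranges overlapped between genotypes. Lyz2, the locus of the Cre, ranged from 4538 to 5380 CPM in controls after MI, while its values after MI in Vegfc-deficient mice were 1392 (M35), 203 (M900) and 12.4 CPM (M913). Naive controls had 2121 and 2282 CPM, and M150 and M34 had 72.5 and 245 CPM. The library labelled M149 had 4565 CPM, which goes against its Vegfc-deficient label. Summed markers of alveolar macrophages were also high in M44, M45 and M149 (661, 686 and 1744 CPM, mostly Chil3) and low in M150 and M34 (72.3 and 119 CPM). Library M35 stood apart after MI, with a cardiomyocyte marker sum of 20340 CPM against 2007 to 9438 CPM in the other 5 MI libraries. All 6 MI libraries had high Xist (188 to 403 CPM, against 0.624 to 11.8 CPM in naive mice) and nearly no counts on 4 summed Y-linked genes (0 to 1.84 CPM, against 152 to 195 CPM). Sex and MI therefore cannot be told apart in any comparison of MI with naive hearts.

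The upstream sequences of C1qb and C1qc, the C1q genes with a promoter window here, and of C3 with the receptor gene of its fragment, are shown as examples. RefSeq windows (GRCm38.p6, 250 bases before to 50 after the start) were found for 6 of the 9 genes, and not for C1qa, C4b and Serping1. Only the bases upstream of both the RefSeq and the GENCODE start are printed, 5′ to 3′ on the minus strand that carries all 9 genes. Capitals mark GAGGAA, a core bound by PU.1, or its reverse complement TTCCTC, and TGACTCA, an AP-1 motif.
C1qb, chr4:136886201-136886450: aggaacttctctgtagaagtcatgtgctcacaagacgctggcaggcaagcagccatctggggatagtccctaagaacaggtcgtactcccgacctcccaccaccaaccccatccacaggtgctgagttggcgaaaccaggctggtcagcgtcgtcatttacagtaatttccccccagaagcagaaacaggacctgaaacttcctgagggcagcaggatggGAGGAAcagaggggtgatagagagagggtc
C1qc, chr4:136893066-136893164: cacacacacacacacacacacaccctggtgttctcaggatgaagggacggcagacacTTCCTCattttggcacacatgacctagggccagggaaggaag
C3, chr17:57228137-57228386: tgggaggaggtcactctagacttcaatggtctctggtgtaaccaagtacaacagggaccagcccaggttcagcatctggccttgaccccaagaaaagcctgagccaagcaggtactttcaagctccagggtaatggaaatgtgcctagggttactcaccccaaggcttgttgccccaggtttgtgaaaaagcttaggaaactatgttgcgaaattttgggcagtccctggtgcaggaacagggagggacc
C3ar1, chr6:122856162-122856407: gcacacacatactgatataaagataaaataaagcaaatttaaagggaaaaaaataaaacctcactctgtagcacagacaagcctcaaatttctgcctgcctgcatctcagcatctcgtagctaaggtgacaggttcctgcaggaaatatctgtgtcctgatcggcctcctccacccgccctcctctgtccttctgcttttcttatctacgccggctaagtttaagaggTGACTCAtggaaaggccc

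Over the whole 300-base windows and both strands, GAGGAA was present once for C1qb, once for C1qc and 2 times for Cfp, and TGACTCA once for C3ar1. Neither string was present in the windows of C3 and C5ar1. The strings do not overlap one another. Of all 32851 windows, 28.3% held GAGGAA and 5.2% held TGACTCA, so a match to the first is common, and each match is a description of the letters only.

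The C1q chains, C3 and C5ar1 rose after MI in both genotypes, while C3ar1 and Cfp passed the edgeR test in neither. In control mice 5 of the 9 genes rose (C1qa, C1qb, C1qc, C3 and C5ar1) and 0 fell by the quasi-likelihood test of edgeR (p adjusted by Benjamini-Hochberg). Over all 14779 genes tested, 26.1% rose and 24.1% fell in that comparison. In Vegfc-deficient mice 7 of the 9 rose (these 5 with C4b and Serping1) and 0 fell, where 29.9% of all genes rose and 27.6% fell. In control mice DESeq2 called 7 members and 7731 genes in all, and limma-voom 7 and 8466. In Vegfc-deficient mice DESeq2 called 8 members and 8721 genes, and limma-voom 9 and 9428, so C3ar1 and Cfp passed limma-voom there. The median log2 change of the 9 genes was 1.34 in control and 1.16 in Vegfc-deficient mice, beside 0.13 and 0.10 for all genes tested. In bulk tissue, fewer cells of a type and less RNA per cell cannot be told apart.

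In control mice 0 of the 9 genes were called without M44 or without M45, which leaves 1 naive control library. The log2 changes of the 5 genes were then 0.93 to 1.80 without M44 and 1.07 to 1.66 without M45, and calls over all genes fell from 7428 to 4882 and 4546. In Vegfc-deficient mice 7 genes were called without M149 and 8 without M35. Scaling to library totals alone raised the median change of all genes to 0.57 in control and 0.59 in Vegfc-deficient mice. It moved the calls over all genes from 3862 higher and 3566 lower to 6860 higher and 2143 lower in control mice. In Vegfc-deficient mice they moved from 4416 higher and 4078 lower to 7448 higher and 2412 lower. A change of scaling shifts all genes by nearly the same amount, so values relative to the median of all genes stay close by construction. For C1qb in control mice they were 1.57 and 1.56 under TMM and library totals.

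**Figure D1:**
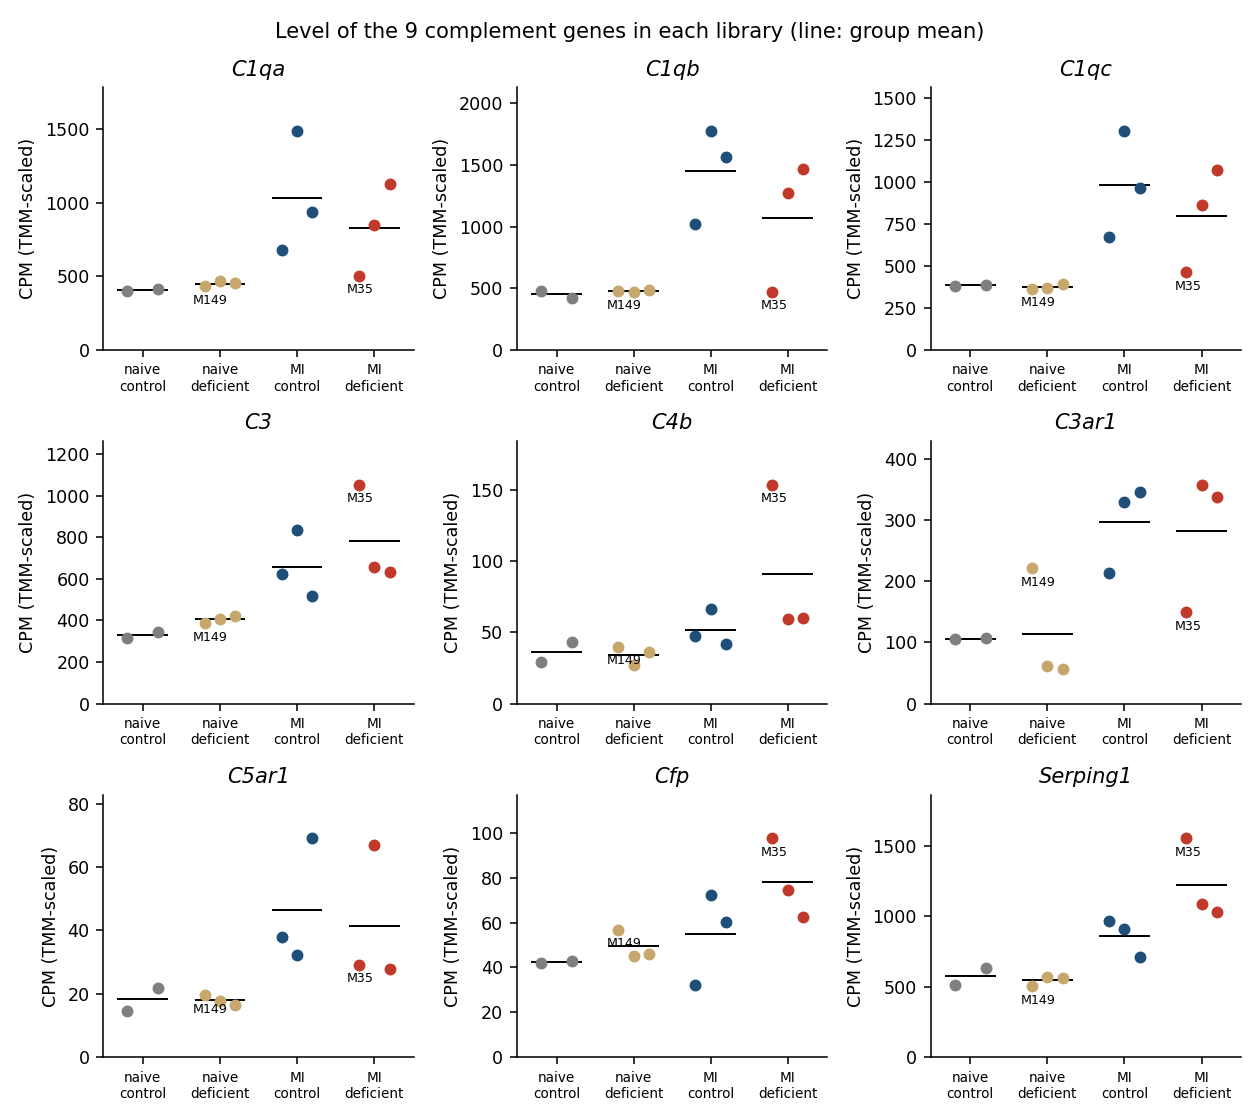
Level of each of the 9 complement genes (y axis, TMM-scaled CPM from 0) in the 11 libraries, by group (x axis), with a line at each group mean and M35 and M149 named. The C1q chains sit between 364 and 485 CPM in all naive libraries and spread widely after MI, where M35 is lowest for all 3 chains and highest for C3, C4b, Cfp and Serping1.

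C1qa, C1qb and C1qc encode the A, B and C chains of C1q. They lie side by side on chromosome 4 of GRCm38, at 136895917 to 136898803 (C1qa, ENSMUSG00000036887), 136880129 to 136886187 (C1qb, ENSMUSG00000036905) and 136889804 to 136893065 (C1qc, ENSMUSG00000036896). C1qa was at 403 and 415 CPM in naive control and at 431 (M149), 466 (M150) and 453 CPM (M34) in naive Vegfc-deficient mice. In control mice after MI it reached 680.5 (M006), 1487 (M38) and 934 CPM (M40), and in Vegfc-deficient mice 502 (M35), 850.2 (M900) and 1129 CPM (M913). Values of the other genes follow in this order of libraries. Every MI library was above every naive one, and the MI genotypes overlapped. The log2 change of C1qa was 1.34 ± 0.38 (standard error; edgeR adjusted p = 0.0147) in control mice and 0.88 ± 0.33 (edgeR adjusted p = 0.0414) in Vegfc-deficient mice. The latter call was kept in 10 of 19 alternatives, with adjusted p from 0.00249 (limma-voom) to 0.208 (edgeR), and the log2 change without M913 was 0.55.

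C1qb was at 481 and 417 CPM in naive control and at 475, 467 and 485 CPM in naive Vegfc-deficient libraries. The MI levels were 1022, 1776 and 1565 CPM in control libraries and at 472.5, 1275 and 1468 CPM in Vegfc-deficient libraries. The lowest of these, M35, lay within the naive range, and the other 5 MI libraries lay above it. C1qb rose 3.24-fold in control mice (log2 1.70 ± 0.44, edgeR adjusted p = 0.00922) and 2.25-fold in Vegfc-deficient mice (log2 1.17 ± 0.37, edgeR adjusted p = 0.0209). The latter log2 change was 1.53 without M35 and 0.83 without M913, and its call was kept in 14 of 19 alternatives. C1qc was at 381 and 388 CPM, and 364, 365.5 and 393 CPM, in the naive groups. The MI libraries held C1qc at 669, 1301 and 962 CPM in control and at 462, 859 and 1070 CPM in Vegfc-deficient mice, all above the naive ones. Its log2 change was 1.35 ± 0.37 (edgeR adjusted p = 0.0116) in control and 1.09 ± 0.32 (edgeR adjusted p = 0.0134) in Vegfc-deficient mice.

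The ratios of the 3 chains are given as a description, with no test. Per kilobase of merged exon, C1qa over C1qb was 0.876 to 1.04 in naive control, 0.949 to 1.04 in naive Vegfc-deficient, 0.624 to 0.876 in MI control and 0.697 to 1.11 in MI Vegfc-deficient libraries, with the highest ratio in M35. C1qc over C1qb was 0.432 to 0.524 in naive libraries, 0.346 to 0.413 in 5 of the 6 MI libraries, all below the naive ones, and 0.551 in M35. With the longest transcript in place of merged exons that ratio was 0.694 to 0.841 in naive libraries, 0.556 to 0.663 in the same 5 and 0.884 in M35, since the merged exons of C1qc span 1931 bases and its longest transcript 1203.

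Some markers of macrophages rose beside C1q, and the part of macrophages in the rise of C1q was not tested. Of 7 macrophage markers, 4 rose and none fell in each genotype. Of all genes tested, 26.1% rose and 24.1% fell in control mice, and 29.9% and 27.6% in Vegfc-deficient mice. The mean of Mrc1 was instead lower after MI (146 and 119 CPM in control, 156 and 147 CPM in Vegfc-deficient mice). The summed level of the macrophage markers was 498 to 1296 CPM in naive and 1020 to 1633 CPM in MI libraries. These ranges overlapped, with naive M149 (1296 CPM) above M35 (1020 CPM) and M006 (1043 CPM). The sums of 4 resident macrophage markers (Timd4, Folr2, Lyve1 and Cd163), which all fell in both genotypes, went from 294 to 352 CPM to 91.4 to 140 CPM. Monocyte markers rose in 2 of 3 cases in each genotype, from sums of 10.3 to 46.5 CPM to 100 to 420 CPM. Per kilobase, C1qb over Adgre1, a general macrophage marker, was 10.5 to 21.8 in naive libraries, 12.2 to 16.8 in MI control and 7.09 to 15.1 in MI Vegfc-deficient libraries, so these ranges overlapped. C1qb over Csf1r, the receptor of the growth factor CSF1, was 7.58 to 14.7 in naive and 19.8 to 26.2 in MI control libraries, which do not overlap. In MI Vegfc-deficient libraries that ratio was 7.68 in M35, 19.3 in M900 and 21.1 in M913.

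C3 encodes the central component, and lies on chromosome 17 from 57203970 to 57228136 (ENSMUSG00000024164). It was at 313.5 and 346 CPM in naive control and at 387.5, 409 and 422 CPM in naive Vegfc-deficient libraries. Hearts with MI had 623, 836 and 516 CPM in control and at 1054, 658 and 632 CPM in Vegfc-deficient libraries. All MI libraries were above all naive ones, and M35 was the highest of the 11. C3 rose in control mice (log2 0.999 ± 0.28, edgeR adjusted p = 0.0135) and 1.92-fold in Vegfc-deficient mice (log2 0.94 ± 0.24, edgeR adjusted p = 0.0077). Its call in Vegfc-deficient mice was kept in all 19 alternatives, with a log2 change of 0.67 without M35.

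C4b encodes complement C4, which forms part of the enzyme that cleaves C3. It lies on chromosome 17 from 34728380 to 34743882 (ENSMUSG00000073418). Of the 50-base stretches in its transcripts, 34.6% also occur in the near-copy C4a, so reads could be split between them and C4b values are uncertain. C4a held at most 0.953 CPM. C4b was at 29.25 and 43.0 CPM in naive control, and at 39.7, 27.0 and 36.05 CPM in naive Vegfc-deficient libraries. After MI it was at 47.2, 66.5 and 42.0 CPM in control, where the range overlapped that of naive mice, and at 154, 59.6 and 60.05 CPM in Vegfc-deficient libraries. The change in control mice did not pass the test (log2 0.52 ± 0.42, edgeR adjusted p = 0.321). In Vegfc-deficient mice C4b rose (log2 1.41 ± 0.38, edgeR adjusted p = 0.00964), in all 19 alternatives, and by 0.80 without M35.

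Serping1 encodes C1 inhibitor, which blocks the proteases C1r and C1s, and lies on chromosome 2 from 84765387 to 84775444 (ENSMUSG00000023224). It was at 515 and 632 CPM in naive control and at 502, 571 and 565 CPM in naive Vegfc-deficient libraries. After MI it was at 964, 910 and 708 CPM in control libraries and at 1550, 1086 and 1032 CPM in Vegfc-deficient libraries. The groups thus rank without overlap, naive below MI control and MI control below MI Vegfc-deficient. Over all genes tested, 39.1% in control and 33.6% in Vegfc-deficient mice had higher, non-overlapping values after MI. Between genotypes after MI, 12.1% of all genes did not overlap. That difference of Serping1 was not called (edgeR adjusted p = 0.629), and its log2 value was 0.30 without M35. In control mice the change after MI was 0.59 ± 0.25 on the log2 scale and did not pass the test (edgeR adjusted p = 0.0734). In Vegfc-deficient mice Serping1 rose 2.24-fold (log2 1.16 ± 0.22, edgeR adjusted p = 0.00145), and its log2 change without M35 was 0.96.

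Cfp encodes properdin, which stabilises the C3-cleaving enzyme of the alternative pathway, and lies on chromosome X from 20925454 to 20931555 (ENSMUSG00000001128). It was at 42.0 and 42.7 CPM in naive control and at 56.8, 45.3 and 46.1 CPM in naive Vegfc-deficient libraries. After MI it was at 32.4, 72.4 and 60.4 CPM in control and at 97.5, 74.6 and 62.6 CPM in Vegfc-deficient libraries. The control groups overlapped, with M006 the lowest of all libraries, while the Vegfc-deficient groups did not. Neither change passed the test, with log2 values of 0.38 ± 0.30 (edgeR adjusted p = 0.309) and 0.66 ± 0.27 (edgeR adjusted p = 0.0535).

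The receptor genes were C3ar1, on chromosome 6 from 122847138 to 122856161 (ENSMUSG00000040552), and C5ar1, on chromosome 7 from 16246743 to 16259540 (ENSMUSG00000049130). They encode the receptors of C3a and C5a on myeloid cells. C3ar1 was at 105 and 107 CPM in naive control libraries and at 221, 62.1 and 56.6 CPM in M149, M150 and M34. Among naive libraries it was thus highest in the library labelled M149 of the Vegfc-deficient group, which also had the highest Cd68 (527 CPM against 75.8 to 293 CPM) and Chil3 (1679 CPM against 26.02 to 601 CPM). M44 and M45 were above M150 and M34 as well. The receptor gene Itgax split the naive libraries likewise, at 91.1, 102 and 235 CPM in M44, M45 and M149 and at 5.57 and 6.92 CPM in M150 and M34. The part of the cells that carry these genes in the C3ar1 values was not tested. After MI C3ar1 was at 214, 330.3 and 346 CPM in control and at 149.2, 358 and 338 CPM in Vegfc-deficient libraries. In control mice the groups did not overlap, but the change of 1.48 ± 0.61 (log2) did not pass the test (edgeR adjusted p = 0.066). In Vegfc-deficient mice they overlapped, with a log2 change of 1.31 ± 0.52 (edgeR adjusted p = 0.0542) that was 2.25 without M149 and 0.99 without M34.

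C5ar1 was at 14.7 and 21.9 CPM in naive control and at 19.6, 17.7 and 16.5 CPM in naive Vegfc-deficient libraries. After MI it was at 37.8, 32.2 and 69.0 CPM in control and at 29.2, 67.0 and 27.9 CPM in Vegfc-deficient libraries, all above the naive values. It rose by 1.34 ± 0.45 (log2, edgeR adjusted p = 0.0302) in control and by 1.21 ± 0.39 (log2, edgeR adjusted p = 0.023) in Vegfc-deficient mice. Without M900 the latter value was 0.66. Neutrophils also carry this receptor, and the summed neutrophil markers were highest in the same 2 MI libraries as C5ar1, M40 (346 CPM) and M900 (189.5 CPM), against 36.0 to 60.5 CPM in the other 4. Csf3r of that list was instead highest in M38 (28.7 CPM). In naive Vegfc-deficient libraries the sums were 74.1 to 110 CPM, although C5ar1 was at 16.5 to 19.6 CPM there. The part of neutrophils was not tested.

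**Figure D2:**
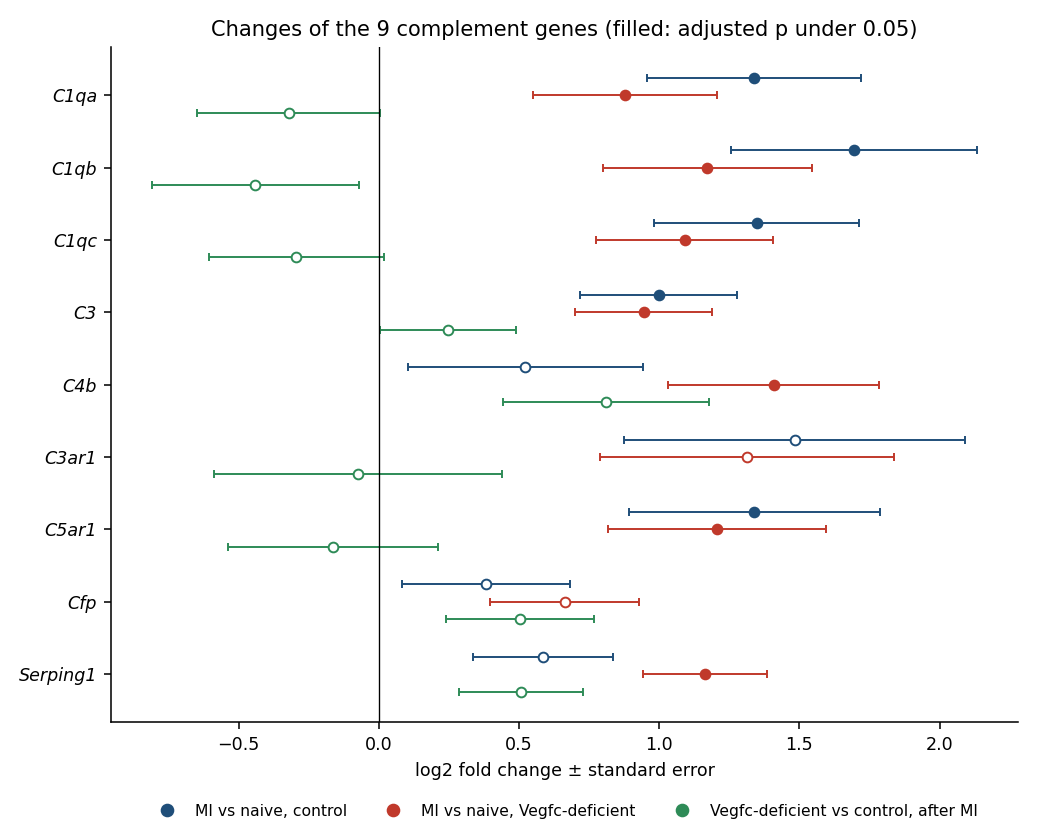
Log2 fold change with its standard error (x axis) for each gene (y axis) in MI against naive hearts of control and of Vegfc-deficient mice, and in Vegfc-deficient against control mice after MI. All 18 MI changes lie above 0 and 12 are filled (adjusted p under 0.05), while the 9 genotype differences lie on both sides of 0 and none is filled.

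Whether loss of Vegfc in myeloid cells altered these genes after MI was the question of the genotype comparison. None of the 9 genes was called by edgeR, beside 0% of all genes tested. At an unadjusted p under 0.05, 1 member (Serping1) and 1165 of all genes passed, and DESeq2 called 0 members and 62 genes in all, while limma-voom called 0 of either. The adjusted p values of the members from edgeR were 0.629 to 0.983. Serping1 was the only one of the 9 whose groups did not overlap, where 12.1% of all genes did not. Its difference was 0.51 ± 0.22 on the log2 scale (edgeR adjusted p = 0.629), and 0.30 without M35. The differences of C1qa, C1qb and C1qc were -0.32 ± 0.33, -0.44 ± 0.37 and -0.29 ± 0.31. With 1 library left out, that of C1qb was -0.76 (without M913) to -0.09 (without M35) and that of C1qc -0.58 (without M913) to -0.0085 (without M38). Those of C3 and C4b were 0.25 ± 0.24 and 0.81 ± 0.37, and without M35 they were -0.03 and 0.20. The differences of C3ar1, C5ar1 and Cfp were -0.07 ± 0.51, -0.16 ± 0.37 and 0.50 ± 0.26, and that of Cfp was 0.24 without M006 and 0.78 without M38. The standard errors were 0.22 to 0.51 with 3 mice a group. Differences well above their standard error, such as those of C4b and Serping1, were also not called. The lack of calls therefore does not show that the genotypes were alike.

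In naive mice none of the 9 genes was called by edgeR between the genotypes, beside 0% of all genes. With 2 and 3 libraries, the lack of calls does not show that the genotypes were alike. The Vegfc-deficient group here includes M149, whose Lyz2 level goes against its label. Without M149, edgeR called 14 genes and 0 members, and the log2 difference of C3ar1 went from 0.10 to -0.84. At an unadjusted p under 0.05, 0 members and 490 genes passed, and DESeq2 called 0 members of 14 genes and limma-voom 0 of 6. The groups of C1qa, C3 and Cfp did not overlap, with higher values in Vegfc-deficient mice, where 22.4% of all genes did not overlap in this comparison of 2 with 3 libraries. For MI against naive hearts the shares of all genes with higher, non-overlapping values were 39.1% in control and 33.6% in Vegfc-deficient mice, and 7 of the 9 genes had such values in each. The interaction, which asks whether the MI change differed between genotypes, was called for 0 of the 9 and for 0% of all genes by edgeR, with 0 members and 1222 genes at an unadjusted p under 0.05, 58 genes and 0 members by DESeq2 and 0 of either by limma-voom. The C4b call in Vegfc-deficient mice alone is therefore not shown to differ between genotypes (interaction 0.89 ± 0.55, edgeR adjusted p = 0.667), nor is that of Serping1 (0.58 ± 0.33, edgeR adjusted p = 0.641). Without M35 these interactions were 0.28 and 0.37.

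Per kilobase of merged exon the genes kept nearly the same order in the 4 groups. C1qb was first (group means 413 and 437 CPM per kb in naive control and Vegfc-deficient mice, 1337 and 985 after MI) and C1qa second (393, 433, 994 and 795), and their ranges overlapped in each group. Serping1 was at rank 3 in 3 groups and C1qc in MI control mice, where the means of C1qc and Serping1 were 506 and 370 CPM per kb with overlapping ranges. C3 was at rank 5 in every group (64.1, 79.0, 128 and 152 CPM per kb), below and apart from the first 4. C3ar1 and Cfp came next and exchanged places between groups. C5ar1 and C4b were lowest, at means of 6.01 to 18.0 CPM per kb, and their ranges overlapped in naive control, naive Vegfc-deficient and MI Vegfc-deficient but not in MI control mice. C3 over C1qb per kilobase was 0.138 to 0.185 in naive, 0.0698 to 0.129 in MI control, and 0.472, 0.109 and 0.0911 in M35, M900 and M913.

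Within groups the C1q chains varied together among libraries, with and without M35. Over 11 libraries, the deviations of log2 CPM from the group mean correlated at 0.89 to 0.98 (Pearson's r) among C1qa, C1qb and C1qc and at 0.76 to 0.87 among C3, C4b and Serping1. Between these sets all 9 r values were negative, and lowest at -0.80 for C1qb with Serping1. These values are descriptions of libraries that share scaling and tissue composition. The opposite sign of the C1q chains to C3 and C4b rested on M35. It lay 1.02 (log2) below its group mean in C1qb and 0.91 above in C4b. Over the 10 libraries without M35, r was 0.88 to 0.98 within the C1q chains and 0.41 to 0.69 within the second set. Without it 6 of the 9 values between the sets were positive, at 0.19 to 0.61 for the C1q chains with C3 and C4b, and the 3 with Serping1 were -0.49 to -0.04. The part of the cardiomyocyte and other cell content of M35 in these values was not tested.

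Among the other 14778 genes tested, the gene most like C1qa in these deviations was C1qc (r = 0.98), followed by Grk2, D17Wsu92e, Gnl1 and Plekho1 (r = 0.97 to 0.98), and C1qb was at rank 68. Those most like C3 were Zfp943, Chrm2, Retreg1, Ttc32 and Ppp6c (r = 0.97 to 0.99), with C4b at rank 301 and Serping1 at rank 457. These genes were picked as the highest of 14778 r values over 11 libraries, so high r values follow in part from the choice. Among the MI Vegfc-deficient libraries, M35 was lowest in each gene most like C1qa and highest in each most like C3. Retreg1 was at 105 CPM in M35 and at 43.1 and 44.4 CPM in M900 and M913. Ranks without M35 are not given.

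**Figure D3:**
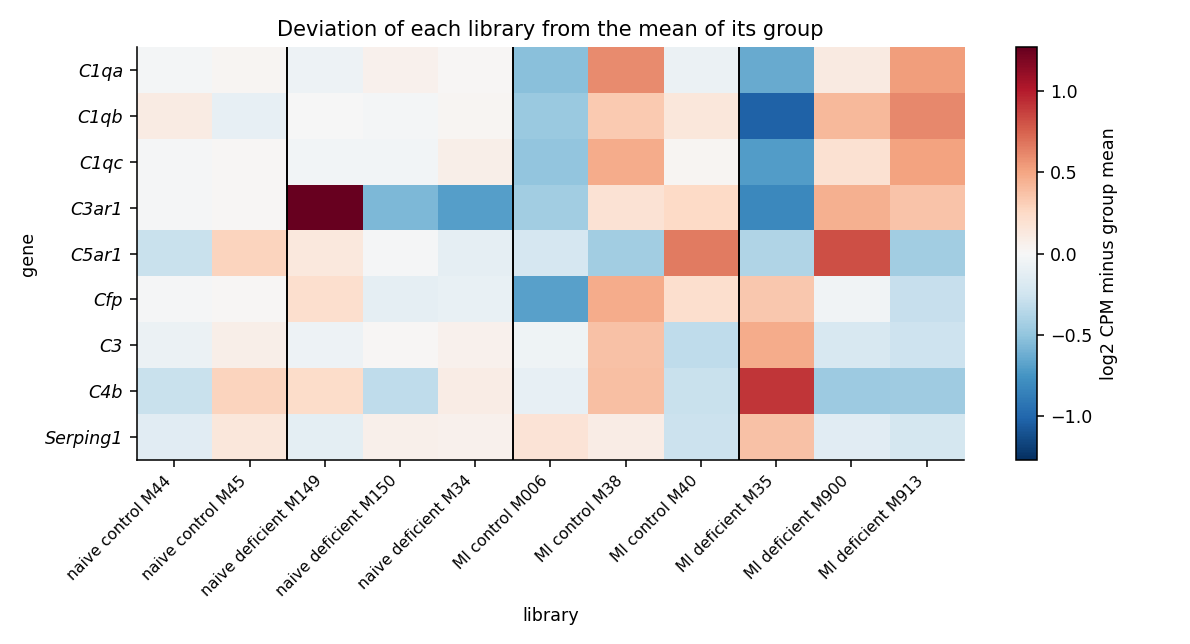
Deviation of log2 CPM from the mean of the library's group (colour) for each gene (y axis) in each library (x axis), with lines between the 4 groups. M35 is blue for the C1q chains and receptors and red for Cfp, C3, C4b and Serping1.

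The remaining genes of the cascade were read from a list of 44, of which 33 passed the filter on low counts. In control mice 9 rose (27.3%) and 6 fell (18.2%), and in Vegfc-deficient mice 13 rose (39.4%) and 6 fell (18.2%). The shares of all genes tested were 26.1% and 24.1%, and 29.9% and 27.6%, so the share that rose in control mice was near that of all genes. Their median log2 changes were 0.64 and 0.70, beside 0.13 and 0.10 for all genes. None was called by edgeR between genotypes after MI, in naive mice or in the interaction. Among classical pathway genes, C1ra and C1s1, the proteases that act with C1q, rose by 1.32 ± 0.25 and 1.05 ± 0.21 (log2) in control and by 1.70 ± 0.22 and 1.33 ± 0.19 in Vegfc-deficient mice. C2, the partner of C4, rose from 5.45 to 7.62 CPM in naive to 18.3 to 35.3 CPM in MI libraries. Of the C1ra and C1s1 transcript 50-mers, 50.8% and 21.8% also occur in the copies C1rb and C1s2, so these values are uncertain.

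In the alternative pathway, Cfb, whose product cleaves C3, rose by 2.37 ± 0.44 in control and 2.02 ± 0.37 (log2) in Vegfc-deficient mice. Among regulators, Cfi, the protease that inactivates C3b and C4b, rose from 0.803 to 2.03 CPM in naive to 14.7 to 46.2 CPM in MI libraries, in both genotypes. Cd59a, the membrane protein that blocks the terminal complex, fell by 1.39 on the log2 scale in control and by 1.54 in Vegfc-deficient mice. Vtn, which encodes vitronectin, fell as well (log2 -2.74 ± 0.43 and -1.15 ± 0.39). Clu, which encodes the terminal pathway regulator clusterin, was called in Vegfc-deficient mice (log2 1.81 ± 0.52, edgeR adjusted p = 0.0139), where it was at 2271 CPM in M35 and at 717 and 392.4 CPM in M900 and M913. In control mice its change was -0.07 ± 0.57 and not called.

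Among receptors, Vsig4, a C3b receptor of resident macrophages, fell from 19.9 to 50.8 CPM in naive to 2.96 to 12.5 CPM in MI libraries, the way the resident macrophage markers went. Fcna, which encodes ficolin A of the lectin pathway, was at 56.9 to 95.2 CPM in naive libraries and at 8.86 to 20.9 CPM in 5 of the 6 MI libraries, but at 69.6 CPM in M35. It fell in control mice (log2 -2.20 ± 0.72, edgeR adjusted p = 0.0277) and was not called in Vegfc-deficient mice (-1.36 ± 0.65, edgeR adjusted p = 0.098). Of the terminal pathway only C6, C7 and C8g passed the filter and none rose. Transcripts of Hc (C5) were scarce, at 0.0892 to 0.587 CPM, and Mbl1 had 0 counts in every library. Summed hepatocyte markers were at most 1.99 CPM.

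**Figure D4:**
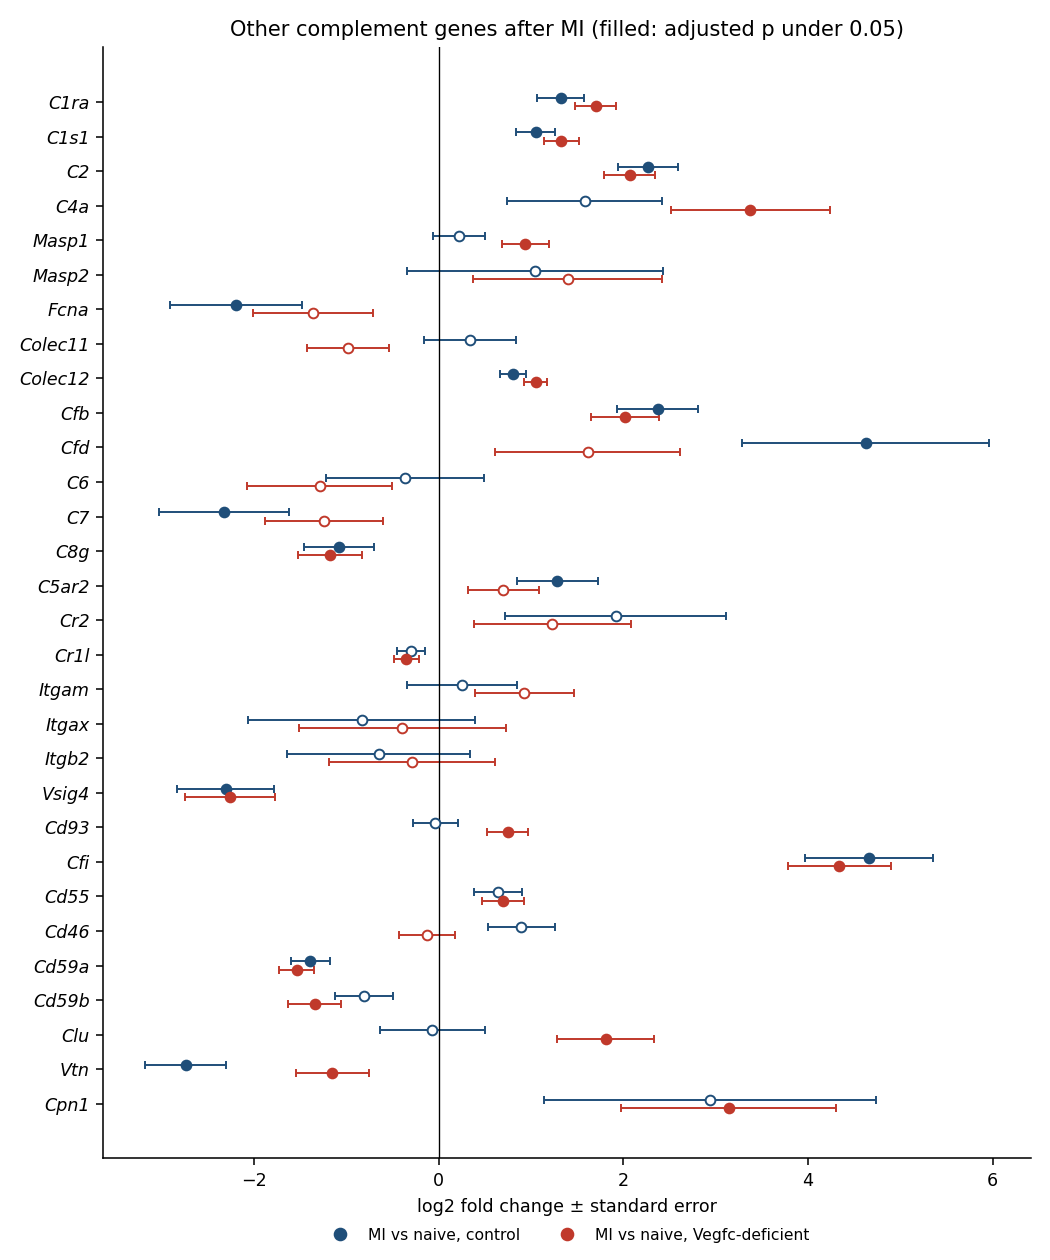
Log2 fold change with its standard error (x axis) after MI in control and Vegfc-deficient mice for other complement genes tested (y axis), filled where the adjusted p was under 0.05. C1rb and C1s2, at or near 0 in several libraries, are left out. Cfi, C2, Cfb, C1ra, C1s1 and Colec12 are filled on the right and Vsig4, Cd59a, Vtn and C8g on the left in both genotypes.

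C1rb and C1s2 split the libraries in a way that followed neither label. They are copies of C1ra and C1s1 and lie beside them in the mouse genome. C1rb was present in M150 (1.57 CPM) and M34 (1.71 CPM) of the naive Vegfc-deficient group, in all 3 controls with MI (3.18 to 5.06 CPM) and in M35 (4.47 CPM). It had 0 counts in M44, M45, M149 and M913 and 1 count in M900. C1s2 was at 4.84 and 4.88 CPM in M150 and M34, at 7.74 to 14.1 CPM in the controls with MI and at 11.05 CPM in M35, and had 0 to 2 counts in the same 5 libraries that lacked C1rb. Counts of 0 to 2 lie under the floor of 3 counts. C1ra and C1s1 were present in all 11 libraries. In naive mice C1ra was at 28.3 CPM in both M150 and M34 and at 22.4 to 25.6 CPM in the other 3, while C1s1 was at 79.6 to 113 CPM with overlapping values.

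**Figure D5:**
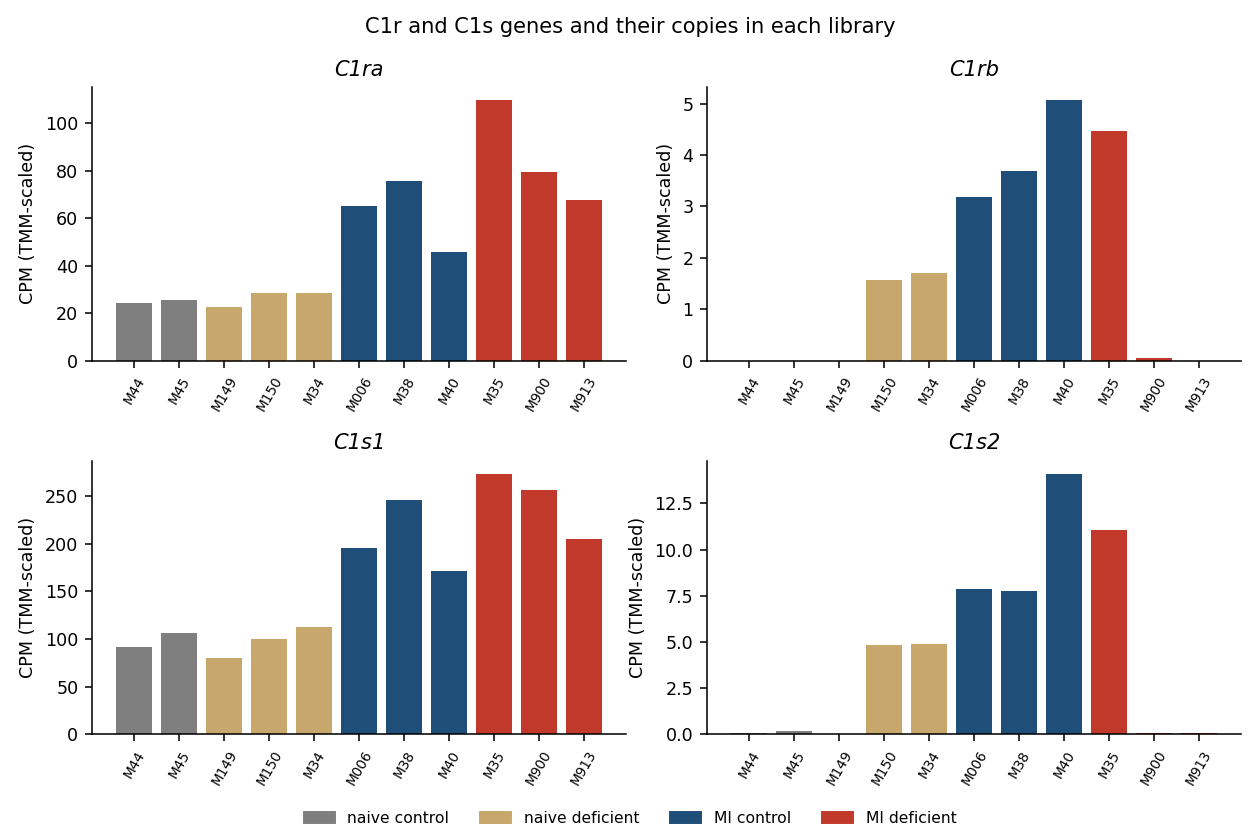
CPM (y axis, from 0) of C1ra, C1rb, C1s1 and C1s2 in each library (x axis), coloured by group. C1rb and C1s2 are near 0 in M44, M45, M149, M900 and M913 and present in the other 6 libraries, while C1ra and C1s1 are present in all 11.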

How the data were processed

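Gene counts of 11 mouse left ventricle libraries were analysed. The authors deposited raw counts per Ensembl gene, made from stranded mRNA libraries with, per the labels, cutadapt 1.13, STAR, HTSeq 0.6.1p1 and DESeq2 1.14.1 on mm10. The strand setting of the counting was not given in the sources used here. Of 25006 gene IDs, 24991 were found in GENCODE M21, which gave symbols, positions and lengths. Counts were scaled by TMM and tested with the quasi-likelihood F test of edgeR 4.0.16 (R 4.3.3) in 1 fit of all 11 libraries by group, after filterByExpr, which all 9 members and 14779 genes passed. P values were adjusted by Benjamini-Hochberg over all genes, at a threshold of 0.05. They set a difference between groups against the spread between mice within groups, estimated over all groups together. CPM per kilobase used merged exon length. Likeness was Pearson's r of deviations of log2 CPM (prior count 2) from group means.

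Alternatives were the Wald test and size factors of DESeq2 1.42.0, limma-voom (limma 3.58.1) with sample weights, library totals, no filter, a mean CPM of at least 1, the groups compared alone, an adjusted p under 0.01, the longest transcript for lengths, and each library left out. The genes named were the 9 members, a list of other complement genes, Vegfc and Lyz2, cell type markers that moved with a result, and the 5 genes most like C1qa and C3. Xist and the Y-linked genes are no part of that rule, as their values were known when they were picked. One gene of the list of other complement genes is counted but not reported here. Members and lists were chosen with earlier results of these data known. Each library's total limits precision to the floor of 3 counts. Shared 50-mers were counted over GENCODE transcripts, and read length was not used. The numbers in the library names belong to single mice.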

Additional observations from a re-analysis of the deposited data

How the results depend on the processing

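Of the log2 changes of the 9 genes after MI in each genotype and between genotypes after MI, under every alternative, 445 kept their direction and side of the threshold, 36 lost a call, 22 gained one and 10 turned sign. In control mice the number of members called after MI was 8 with library totals and 1 at an adjusted p under 0.01, and it was 0 to 6 when a library was left out, with 0 without naive control M44 or M45, which leaves that arm with 1 library assumed to vary like the other groups. In Vegfc-deficient mice it was 3 at an adjusted p under 0.01 and 4 to 8 when a library was left out, with 4 without M150, M34, M900 or M913. Over all 14779 genes tested, 6860 were higher in control mice with library totals and 2242 at an adjusted p under 0.01. In Vegfc-deficient mice 2974 genes were higher at an adjusted p under 0.01. With 1 library left out, genes higher were 3217 to 4053 in control mice, M44 and M45 aside, and 3408 to 4583 in Vegfc-deficient mice. All 10 turned signs were between genotypes after MI, where 0 members were called in any alternative. There C1qa was 0.0048 and C3ar1 0.1423 with limma-voom. When a library was left out C1qa was -0.63 to 0.0607, C3 -0.0307 to 0.49, C3ar1 -0.27 to 0.23 and C5ar1 -0.67 to 0.24. The cause was not tested. In naive mice and in the interaction, also with 0 members called in any alternative, signs turned under at least 1 alternative for C1qb, C4b, C3ar1, C5ar1 and Serping1, and for C1qc, C3, C3ar1 and C5ar1. Without M149 the values of C3ar1 there were -0.84 and 0.76. Over all genes, 7428 calls in control mice fell to 4776 at an adjusted p under 0.01, to 4882 without M44 and to 4546 without M45. With the longest transcript 9 of 36 levels per kilobase moved by more than 1 SD, those of C1qc and Serping1 in all 4 groups and that of Cfp in naive control mice. C3ar1 was called in 5 of 19 alternatives in each genotype. No paired analysis was possible because each mouse number occurs in 1 group only. Depth limited C4a, Hc and Mbl1, at or near the floor in several libraries.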
